A study of Mus musculus with 6 samples.

Results

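The 10 genes Nqo1, Hmox1, Gclc, Gclm, Txnrd1, Srxn1, Gpx3, Sod2, Mt1 and Mt2, which serve the defence of the cell against oxidants and metals, were followed in the brown adipose tissue (BAT) of Letmd1 KO mice. They were chosen by name from the NRF2, glutathione and metallothionein systems, with earlier results of these data known. They are 10 of the 23282 gene rows counted, and all 10 had enough counts to be tested. In Letmd1 KO BAT, Srxn1, Hmox1, Nqo1 and Gclc were higher, Sod2 and Mt1 were lower, and Gclm, Txnrd1, Gpx3 and Mt2 did not pass the test. Of these calls, only those of Srxn1 and Sod2 held under all 13 alternative ways of processing the counts. Nqo1, Gclc and Mt1 lost theirs when certain single mice were left out, and Mt1 changed sign after quantile normalization (0.20).

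NRF2, encoded by Nfe2l2, is a transcription factor that KEAP1 holds in the cytosol and marks for degradation. When oxidants or electrophiles modify KEAP1, NRF2 accumulates, pairs with small MAF proteins and binds antioxidant response elements near genes that make glutathione, reduce thiols, detoxify quinones and break down heme. Metallothioneins are small cysteine-rich proteins that bind zinc and copper, and their genes answer to MTF1, a zinc-sensing factor that binds metal response elements. Brown adipocytes are rich in mitochondria, in whose matrix the superoxide dismutase encoded by Sod2 works.

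BAT was taken from 3 wild-type (WT) and 3 Letmd1 KO mice, all male, C57BL/6N and 5 weeks of age. The Letmd1 KO mice were homozygous for a null allele of the knockout-first type, in which an intronic cassette with lacZ and a neomycin resistance gene disrupts Letmd1. The allele acts in the whole animal, so that Letmd1 was missing from every tissue and not from brown adipocytes alone. The labels give no other allele and no treatment for either genotype.

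RNA was read from the 3′ end with QuantSeq, which gives about 1 read per transcript molecule whatever its length, so that levels of different genes can be set side by side. Totals were between 6669577 and 14574273 counts per mouse, and levels are given as CPM, the counts of a gene relative to the TMM-scaled total of its library. A count of 0 allows up to 3 counts, which is between 0.176 and 0.397 CPM and covers counting error only. Letmd1 itself had 5658, 6490 and 5266 counts in WT and 0, 0 and 1 counts in Letmd1 KO. TMM factors were between 0.852 and 0.886 in WT and between 1.13 and 1.17 in Letmd1 KO, so the choice of scaling can move all fold changes together, and without these factors the middle of the log2 fold changes over all genes shifted by 0.42. All 8 brown adipocyte markers were counted in every mouse, as were all those of adipocytes, endothelium, fibroblasts, erythroid and Schwann cells. Being counted therefore does not by itself bear out the labelled tissue. The brown adipocyte markers summed to between 11911 and 12983 CPM in WT and between 1640 and 2654 CPM in Letmd1 KO. Of these 8 markers, 7 were lower. Of the markers of other cells, all 13 of macrophages and all 7 of fibroblasts were higher in Letmd1 KO, and 4 of 5 of Schwann cells were. The sum of the macrophage markers was 239, 176 and 248 CPM in WT and 1676, 3492 and 1422 CPM in Letmd1 KO, and only Trem2 among them was at 0 in any mouse. The sum of the fibroblast markers was between 1382 and 1917 CPM in WT and between 3896 and 6697 CPM in Letmd1 KO. The sum of the skeletal muscle markers was 88.8, 572 and 101 CPM in WT and 529, 411 and 1486 CPM in Letmd1 KO, and 2 of these 15 were higher. Of general adipocyte markers 5 of 7 and of endothelial markers 3 of 8 were lower, and 0 of 5 erythroid markers were called. In RNA of a whole tissue, fewer cells of a type and less RNA per cell cannot be told apart, and the part of these cell markers in the results that follow was not tested.

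Whether the 10 genes moved with the loss of Letmd1 was asked with edgeR's quasi-likelihood test over the 12995 genes tested, in which p-values were adjusted by Benjamini-Hochberg and a gene was called below an adjusted p of 0.05. Of the 10 genes, 4 were higher in Letmd1 KO, where 23.7% of all tested genes were higher. Another 2 were lower, where 22.3% of all tested genes were lower. In either direction 6 of 10 were called, against 46.0% of all tested genes, so that the count by itself sets the 10 genes little apart from the rest. The values of the genotypes did not overlap for 8 of the 10 genes, against 57.3% of all tested genes. For 5 of these 8 every Letmd1 KO mouse was above every WT mouse (30.1% of all genes), and for 3 every one was below (27.2%). The median log2 fold change of the 10 genes was 0.37, beside 0.03 for all genes tested. The count of called genes was 3 both without WT mouse 2 and without Letmd1 KO mouse 1. The p-values weigh the difference between the genotypes against the spread between mice, estimated with help from all genes tested. They would not cover a difference in litter or processing that runs with genotype.

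**Figure D1:**
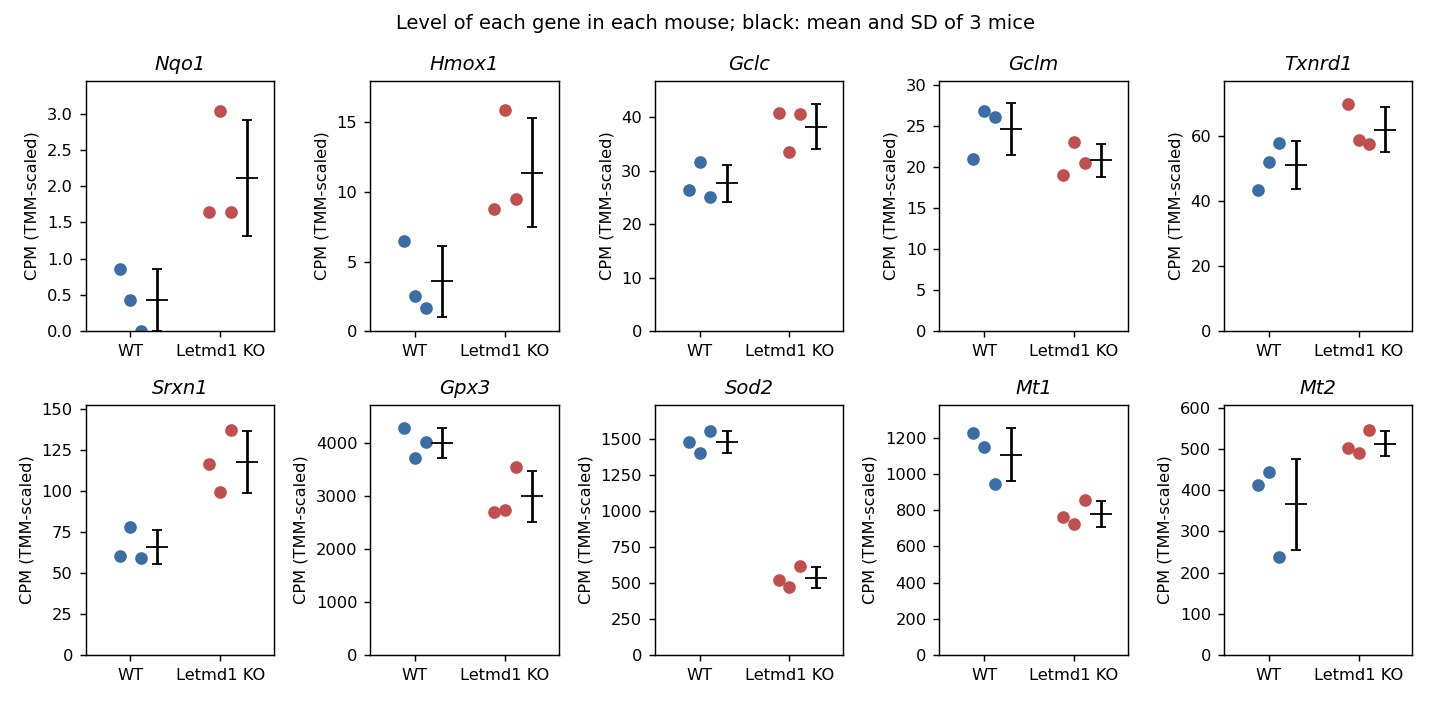
Level of each of the 10 genes in each mouse, in CPM after TMM scaling on axes that start at 0, with the mean and SD of 3 WT and 3 Letmd1 KO mice. Sod2 lies below WT in every Letmd1 KO mouse (1483 to 538 CPM), Srxn1 lies above WT in every Letmd1 KO mouse (65.9 to 118 CPM), and Gclm and Txnrd1 overlap.

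Glutathione is made from glutamate, cysteine and glycine, and its first and limiting step is run by glutamate-cysteine ligase, whose catalytic subunit is GCLC and whose modifier subunit is GCLM. Gclc had 26.4, 31.6 and 25.0 CPM in the WT mice and 40.8, 33.5 and 40.5 CPM in the Letmd1 KO mice. Every Letmd1 KO mouse was above every WT mouse, and the level rose from 27.7 ± 3.46 to 38.3 ± 4.14 CPM (SD, n = 3 per genotype), a log2 fold change of 0.47 ± 0.15 (SE), or 1.38-fold (adjusted p = 0.0264). Gclm had 21.0, 26.8 and 26.1 CPM in WT and 19.0, 23.0 and 20.5 CPM in Letmd1 KO. The genotypes overlapped, and its log2 fold change of -0.24 ± 0.15 (adjusted p = 0.225) turned to 0.18 with scaling by library size alone. The Gclc call was lost without WT mouse 1 (log2 fold change 0.43), WT mouse 3 (0.39), Letmd1 KO mouse 1 (0.42) or Letmd1 KO mouse 3 (0.42). Gclc spans 77754535 to 77794485 on chromosome 9 and Gclm 122245557 to 122270732 on chromosome 3, both on the plus strand, in GENCODE vM21 on GRCm38. Exons of Gclm overlap those of Gm17494 on the opposite strand over 296 bases, and since no source used here says whether reads were counted by strand, reads from both cannot be told apart.

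The ratio of the pair within a mouse does not depend on a scale factor applied to a whole library, as in TMM, RLE or library size. Quantile normalization is not such a factor and can change it. The log2 ratio of Gclm to Gclc counts was -0.33, -0.24 and 0.06 in WT and -1.10, -0.54 and -0.98 in Letmd1 KO. It was thus lower in each Letmd1 KO mouse than in any WT mouse, with means of -0.17 ± 0.20 and -0.87 ± 0.29 (SD) and a difference of -0.70. The two-sided exact permutation test gave p = 0.1, the smallest value that 3 mice against 3 allow, and the adjusted p over the 5 gene pairs compared was also 0.1.

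Of the 16 tested genes for the synthesis and recycling of glutathione, 6 were higher and 1 was lower in Letmd1 KO, with a median log2 fold change of 0.45. The counts of this and the following lists stand beside 23.7% higher and 22.3% lower over all tested genes and were given no test of their own. Apart from the NRF2 regulators, most genes named from the longer lists are the extremes of those called. Slc7a11, the cystine carrier of the cystine/glutamate exchanger, had 0 counts in all 3 WT mice and 25 counts in each Letmd1 KO mouse. It was called higher (adjusted p = 0.00107), and its Letmd1 KO level was 2.51 ± 0.942 CPM. That mean was 7.29-fold above the mean WT floor of 3 counts per library, or 0.344 CPM. The fold leaves out the spread of the Letmd1 KO mice, of which mouse 3 was at 1.47 CPM. Slc7a11 was named after its values were seen. Its partner chain Slc3a2, which also serves other amino acid carriers, rose from 131 ± 33.9 to 288 ± 24.04 CPM (2.19-fold, adjusted p = 0.000831). The glutathione-degrading enzyme gene Chac1, also a target of the ATF4 stress pathway, rose from 0.950 ± 0.488 to 11.8 ± 2.72 CPM (12.02-fold, adjusted p = 8.90e-05). Gss, glutathione synthetase, which was also named after its values were seen, rose from 14.1 ± 3.42 to 26.9 ± 5.36 CPM (log2 fold change 0.93, adjusted p = 0.00636). Lap3, a leucine aminopeptidase that cleaves dipeptides, fell from 136 ± 9.54 to 106 ± 2.31 CPM (log2 fold change -0.35, adjusted p = 0.0171), but the change was 0.067 with library size alone and the call was lost without Letmd1 KO mouse 3 (-0.34). With library size alone, 10 of the 16 genes were higher and 0 lower, and without Letmd1 KO mouse 3 also 0 were lower.

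Srxn1 encodes sulfiredoxin, which restores over-oxidised peroxiredoxins, and Txnrd1 the cytosolic thioredoxin reductase. Srxn1 had 60.6, 77.9 and 59.3 CPM in the WT mice and 117, 99.3 and 137 CPM in the Letmd1 KO mice, without overlap. It rose from 65.9 ± 10.4 to 118 ± 19.1 CPM, a log2 fold change of 0.84 ± 0.15, or 1.79-fold (adjusted p = 0.00199). The call and direction held under all 13 alternatives, with log2 fold changes between 0.71 and 1.26. Txnrd1 had 43.3, 52.1 and 58.0 CPM in WT and 70.0, 58.8 and 57.6 CPM in Letmd1 KO. The genotypes overlapped, and the log2 fold change of 0.28 ± 0.14 did not pass (adjusted p = 0.134), though it did with library size alone (0.70, adjusted p = 0.00296) and after quantile normalization (0.40, adjusted p = 0.0456). Srxn1 spans 152105516 to 152111376 on chromosome 2 and Txnrd1 82833951 to 82897712 on chromosome 10, both on the plus strand.

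The promoters of Srxn1 and Gclm are shown because both hold matches to the antioxidant response element that NRF2 binds, while the transcripts differ in outcome. Each is 300 bases of RefSeq on GRCm38.p6 (250 before to 50 after the annotated start), written 5′ to 3′ on the strand of the gene, with the matches in capitals. The pattern searched, on both strands, was TGACNNNGC or TGAGNNNGC, and its second form was added after the Srxn1 promoter had been seen. Srxn1 (chr2:152105274-152105573) holds 3 matches, of which 2 lie before the start and 1 after it. Gclm (chr3:122245307-122245606) holds 1, before the start.
Srxn1: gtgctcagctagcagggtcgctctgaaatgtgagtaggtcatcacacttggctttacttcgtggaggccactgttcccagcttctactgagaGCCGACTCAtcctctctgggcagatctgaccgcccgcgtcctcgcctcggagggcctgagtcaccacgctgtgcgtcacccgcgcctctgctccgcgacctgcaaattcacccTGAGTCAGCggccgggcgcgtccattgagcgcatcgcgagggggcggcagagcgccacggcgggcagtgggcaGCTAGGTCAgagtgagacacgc
Gclm: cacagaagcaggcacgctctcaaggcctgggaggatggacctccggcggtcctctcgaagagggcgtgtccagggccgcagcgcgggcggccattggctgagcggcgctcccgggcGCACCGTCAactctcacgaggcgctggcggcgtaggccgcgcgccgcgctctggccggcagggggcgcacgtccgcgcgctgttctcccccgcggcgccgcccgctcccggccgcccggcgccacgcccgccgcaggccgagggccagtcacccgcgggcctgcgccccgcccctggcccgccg
Of 32851 RefSeq promoters of that length, 27.8% hold a match to either form and 12.4% to TGACNNNGC. With that form alone, Srxn1 and Gclm hold 1 match each. The number of Srxn1 matches thus rests on a form added for it, and nothing is read from it. Of the 3 Txnrd1 starts in the table, 1 holds 1 match (chr10:82858956-82859255). The windows of Nqo1, Gpx3, Sod2 and Mt1 hold no match, but bases outside the windows were not searched. The promoters of Hmox1 and Gclc were not analysed here. A match is a run of letters and was not tested for binding.

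The cytosolic thioredoxin reductase was set against its mitochondrial relative. Txnrd2, the mitochondrial enzyme, fell from 51.2 ± 3.11 to 22.0 ± 0.0619 CPM (2.32-fold lower, adjusted p = 5.55e-05). The log2 ratio of Txnrd1 to Txnrd2 was -0.18, 0.06 and 0.08 in WT and 1.67, 1.41 and 1.38 in Letmd1 KO. All Letmd1 KO mice were above all WT mice, and the difference of 1.49 is a 2.82-fold shift of the ratio (two-sided exact permutation p = 0.1, the smallest possible). Of 22 tested genes of the thioredoxin and peroxiredoxin system, Srxn1 alone was higher and 12 were lower, with a median log2 fold change of -0.54. Among the lower ones Msra, which reduces oxidised methionine, fell from 73.3 ± 1.74 to 30.1 ± 3.77 CPM (log2 fold change -1.29, adjusted p = 5.45e-05). With library size alone 7 genes of this list were higher, and after quantile normalization 4 were, and without Letmd1 KO mouse 1 the count was 2.

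Nqo1 encodes a quinone reductase, Hmox1 the inducible heme oxygenase that turns heme into biliverdin, iron and carbon monoxide. Both are textbook NRF2 targets. Hmox1 had 6.47, 2.54 and 1.70 CPM in the WT mice and 8.79, 15.9 and 9.47 CPM in the Letmd1 KO mice, all above WT. It rose from 3.57 ± 2.55 to 11.4 ± 3.91 CPM, a log2 fold change of 1.64 ± 0.45, or 3.12-fold (adjusted p = 0.0153), and lost the call only without WT mouse 2 (1.42, adjusted p = 0.0560), while it reached 2.39 without WT mouse 1. Nqo1 was near the limit of detection in WT, with 8, 4 and 0 counts, and had 15, 23 and 28 counts in Letmd1 KO. The levels were 0.429 ± 0.431 and 2.11 ± 0.806 CPM, a log2 fold change of 2.18 ± 0.72, or 4.53-fold (adjusted p = 0.0333). The Nqo1 call was lost without WT mouse 2 (2.13), WT mouse 3 (1.66), Letmd1 KO mouse 1 (2.33), mouse 2 (1.86) or mouse 3 (2.35) and after quantile normalization (1.21), and the change reached 3.10 without WT mouse 1. In both genes Letmd1 KO mouse 2 had the highest level. Of the 6 mice it also had the highest sums of macrophage markers (3492 CPM) and of fibroblast markers (6697 CPM). Among the WT mice the order differed, since mouse 3 had the highest macrophage sum (248 CPM) but the lowest Hmox1 (1.70 CPM) and Nqo1 (0 counts). The part of macrophages or fibroblasts in these changes was not tested. On chromosome 8, Hmox1 spans 75093621 to 75100589 on the plus strand and Nqo1 107388225 to 107403206 on the minus strand.

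Hmox2, the constitutive heme oxygenase, was at 124 ± 5.07 CPM in WT and 136 ± 21.7 CPM in Letmd1 KO (log2 fold change 0.14, adjusted p = 0.417; -0.00646 without Letmd1 KO mouse 3). Of the words of 75 bases at its 3′ end, 44% also occur in Cdip1 or Ppp4r2, so that its level and its ratio to Hmox1 are uncertain. It outnumbered Hmox1 in every mouse, and the log2 ratio of Hmox1 to Hmox2 was -4.17, -5.57 and -6.13 in WT and -3.80, -2.94 and -4.08 in Letmd1 KO. The ratio was higher in every Letmd1 KO mouse, by 1.68 on the log2 scale or 3.21-fold (two-sided exact permutation p = 0.1, the smallest possible). Of the other enzymes of heme breakdown, Blvra, a biliverdin reductase, fell from 54.9 ± 5.32 to 38.7 ± 2.34 CPM (adjusted p = 0.00881). Blvrb, the other biliverdin reductase, was at 64.2 and 73.8 CPM (adjusted p = 0.189). Of these 4 genes 1 was higher and 1 lower, and without WT mouse 2 none was higher (0 genes).

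Gpx3 encodes the secreted glutathione peroxidase, which breaks down hydrogen peroxide with glutathione, and was the most abundant of the 10 genes in every mouse. It had 4270, 3701 and 4004 CPM in the WT mice and 2692, 2727 and 3543 CPM in the Letmd1 KO mice, all below WT. The level was 3992 ± 284 and 2987 ± 482 CPM, and the log2 fold change of -0.42 ± 0.16 did not pass (adjusted p = 0.0573). The direction depended on scaling, with 0.0047 by library size alone and 0.51 after quantile normalization, and the gene passed without Letmd1 KO mouse 3 (-0.56, adjusted p = 0.0105) and with DESeq2 (-0.43, adjusted p = 0.0102). Of the 5 tested glutathione peroxidases, 1 was higher and 3 were lower. Gpx1, the cytosolic and mitochondrial peroxidase, fell from 620 ± 43.7 to 359 ± 109 CPM (adjusted p = 0.00872), and Gpx8, of the endoplasmic reticulum, from 146 ± 11.3 to 50.6 ± 31.0 CPM (log2 fold change -1.55, adjusted p = 0.00549; -2.16 without Letmd1 KO mouse 2). Gpx4, which reduces lipid peroxides, fell from 486 ± 44.4 to 340 ± 60.6 CPM (log2 fold change -0.51, adjusted p = 0.0193), but lost the call without WT mouse 2 (-0.51) or Letmd1 KO mouse 1 (-0.37), and 50.4% of the words of 75 bases at its 3′ end also occur in its pseudogene Gpx4-ps2 or in AC122253.3. Gpx7 rose from 7.17 ± 1.79 to 13.0 ± 3.005 CPM (0.84, adjusted p = 0.0261), and lost the call without WT mouse 1 (0.79) or 3 (0.68) or Letmd1 KO mouse 1 (0.69) or 2 (0.79). With library size alone 1 peroxidase was lower, and without WT mouse 1 or 3 or Letmd1 KO mouse 1 or 2 the count of higher ones was 0. Gpx3 spans 54902453 to 54910377 on chromosome 11 (plus strand).

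The superoxide dismutase of the mitochondrial matrix, Sod2, showed the steepest fall of the 10 genes. It had 1484, 1407 and 1557 CPM in the WT mice and 523, 474 and 617 CPM in the Letmd1 KO mice. The lowest WT mouse was far above the highest Letmd1 KO mouse, and the level fell from 1483 ± 74.9 to 538 ± 72.6 CPM, a log2 fold change of -1.46 ± 0.14, or 2.76-fold lower (adjusted p = 4.06e-05). The call and direction held under all 13 alternatives, with log2 fold changes between -1.57 and -0.79. Of all genes tested, 4.29% had a log2 fold change below that of Sod2. Sod2 spans 13006846 to 13040063 on chromosome 17 (plus strand). Of the words of 75 bases in the last 500 bases of its transcripts, 12.7% also occur in AC166110.4 or Rps6ka2, with which Sod2 could share reads.

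Sod1, the cytosolic enzyme, was at 2163 ± 157 CPM in WT and 1727 ± 63.7 CPM in Letmd1 KO (log2 fold change -0.32, adjusted p = 0.0608), with a change of 0.10 by library size alone and, after quantile normalization, a call in the opposite direction (0.51, adjusted p = 0.00981), while with DESeq2 it was called lower (-0.34, adjusted p = 0.0130). Of the words of 75 bases in the last 500 bases of its transcripts, 12.2% also occur in Gm8566. The log2 ratio of Sod2 to Sod1 was -0.63, -0.50 and -0.50 in WT and -1.69, -1.84 and -1.55 in Letmd1 KO. It was lower in every Letmd1 KO mouse, by 1.15 on the log2 scale (two-sided exact permutation p = 0.1, the smallest possible). Of the 5 genes of this group, 3 were lower and 0 higher. Ccs, the copper chaperone of SOD1, fell from 80.4 ± 12.4 to 34.5 ± 4.57 CPM (adjusted p = 0.000219), and catalase, Cat, from 539 ± 35.9 to 328 ± 52.3 CPM (adjusted p = 0.00219). Sod3, the extracellular enzyme, was at 132 ± 7.65 and 146 ± 34.2 CPM (adjusted p = 0.497).

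Mt1 and Mt2 lie 5.51 kb apart on the plus strand of chromosome 8, at 94179082 to 94180327 and at 94172664 to 94173568. Both were abundant, and under TMM scaling their Letmd1 KO levels lay on opposite sides of the WT levels. Mt1 had 1228, 1148 and 945 CPM in the WT mice and 761, 721 and 858 CPM in the Letmd1 KO mice, all below WT. It fell from 1107 ± 146 to 780 ± 70.6 CPM, a log2 fold change of -0.50 ± 0.14 (adjusted p = 0.0150), but was at -0.08 by library size alone and 0.20 after quantile normalization, and the call was lost without WT mouse 1 (-0.43), WT mouse 2 (-0.50) or Letmd1 KO mouse 1 (-0.49). Mt2 had 413, 445 and 239 CPM in WT and 502, 491 and 547 CPM in Letmd1 KO, all above WT. The level was 365 ± 111 and 513 ± 30.0 CPM, and the log2 fold change of 0.49 ± 0.21 did not pass (adjusted p = 0.0795), though it did by library size alone (0.91, adjusted p = 0.00580), after quantile normalization (0.97, adjusted p = 0.00374) and with DESeq2 (0.48, adjusted p = 0.0458). Exons of Mt2 overlap those of the antisense gene Gm45774 over 432 bases, and reads from both cannot be told apart without the strand.

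The ratio of the pair was again free of the scale factor of the library. The log2 ratio of Mt2 to Mt1 was -1.57, -1.37 and -1.98 in WT and -0.60, -0.55 and -0.65 in Letmd1 KO. Every Letmd1 KO mouse was above every WT mouse, with means of -1.64 ± 0.31 and -0.60 ± 0.047 (SD) and a shift of 1.04, or 2.06-fold (two-sided exact permutation p = 0.1, the smallest possible).

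**Figure D2:**
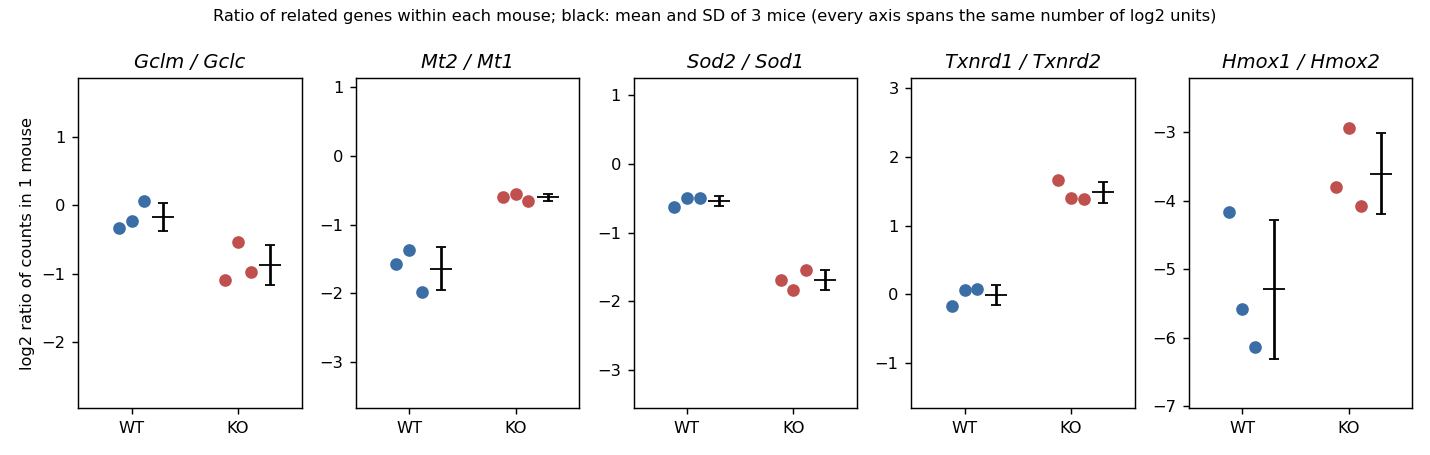
Log2 ratio of the counts of 5 pairs of related genes in each mouse, with the mean and SD of 3 WT and 3 Letmd1 KO mice and axes of equal span. The genotypes do not overlap in any pair, and the ratio is higher in Letmd1 KO for Mt2 to Mt1 (by 1.04), Txnrd1 to Txnrd2 (by 1.49) and Hmox1 to Hmox2 (by 1.68).

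The promoters of Mt1 and Mt2 are shown because they lie side by side and both hold matches to the metal response element of MTF1, while the ratio of the transcripts differed between the genotypes. They are 300 bases of RefSeq on GRCm38.p6, written 5′ to 3′ on the strand of the gene, with the matches in capitals. The patterns searched, on both strands, were TGCACNC and TGCGCNC. Mt1 (chr8:94178839-94179138) holds 3 matches, 1 before and 2 after the start annotated in RefSeq. Mt2 (chr8:94172368-94172667) holds 4, of which 3 lie before its annotated start and 1 after it. Whether transcription begins at these annotated starts in BAT was not tested.
Mt1: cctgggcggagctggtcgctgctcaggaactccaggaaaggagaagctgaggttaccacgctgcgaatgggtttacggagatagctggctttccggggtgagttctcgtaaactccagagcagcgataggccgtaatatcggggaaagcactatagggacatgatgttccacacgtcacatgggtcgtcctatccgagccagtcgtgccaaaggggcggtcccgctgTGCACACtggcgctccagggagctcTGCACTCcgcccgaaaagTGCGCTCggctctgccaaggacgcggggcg
Mt2: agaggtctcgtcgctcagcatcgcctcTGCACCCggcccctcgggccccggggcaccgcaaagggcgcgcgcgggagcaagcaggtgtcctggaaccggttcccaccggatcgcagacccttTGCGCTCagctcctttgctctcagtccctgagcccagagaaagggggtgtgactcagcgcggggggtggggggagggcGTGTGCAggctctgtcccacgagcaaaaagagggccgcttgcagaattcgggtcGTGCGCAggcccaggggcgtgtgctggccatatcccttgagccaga
Of 32851 promoters of that length, 25.7% hold at least 1 match and 1.97% hold 3 or more. The matches are not particular to these genes, since the Gclm window holds 3 and that of Srxn1 holds 1. The Mt2 window also holds 1 match to the antioxidant response element pattern, and that of Mt1 holds 0. Bases outside the windows were not searched, so the 0 does not show that Mt1 lacks such an element.

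Of the 20 tested genes of the metallothioneins and of zinc and copper handling, 5 were higher and 6 lower, with a median log2 fold change of 0.10, and by library size alone 10 were higher and 0 lower. Slc39a6, a zinc importer, rose from 6.04 ± 0.568 to 17.3 ± 2.26 CPM (2.84-fold, adjusted p = 0.000271), and Slc30a7, which loads zinc into the Golgi, rose from 17.9 ± 0.964 to 26.2 ± 2.39 CPM (adjusted p = 0.0102). Slc30a9 fell from 79.4 ± 4.39 to 47.5 ± 8.63 CPM (adjusted p = 0.00283). Slc39a8, a zinc and manganese importer, fell from 3.96 ± 0.935 to 1.65 ± 0.999 CPM (log2 fold change -1.30, adjusted p = 0.0440), but lost the call without WT mouse 1 (-1.28) or 3 (-1.15) or Letmd1 KO mouse 1 (-1.02) or 3 (-1.13) and with the replicate number as a block (-1.37, adjusted p = 0.0685). Mtf1, named after its values were seen, fell from 84.6 ± 7.54 to 56.1 ± 0.635 CPM (log2 fold change -0.59, adjusted p = 0.00188), and lost the call by library size alone (-0.17). Of the words of 75 bases at its 3′ end, 33.5% also occur in 1110065P20Rik. Without Letmd1 KO mouse 1, 6 genes of this list were called, of which 2 were higher, and without Letmd1 KO mouse 3 the higher ones were 3.

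The regulators of NRF2 were examined as a list of 10 genes, all tested, of which 5 were higher and 3 lower in Letmd1 KO. Nfe2l2, the gene of NRF2 itself, had 129, 114 and 99.0 CPM in the WT mice and 195, 196 and 201 CPM in the Letmd1 KO mice. It rose from 114 ± 15.1 to 198 ± 3.396 CPM, a log2 fold change of 0.79 ± 0.12 (adjusted p = 0.000600). Sqstm1, whose protein p62 binds KEAP1 and is also an NRF2 target, rose from 173 ± 33.3 to 572 ± 59.7 CPM (3.30-fold, adjusted p = 4.14e-05), with 580 exon bases that overlap Mrnip on the opposite strand. The small MAF genes Mafg and Mafk rose, from 80.0 ± 5.72 to 132 ± 13.5 CPM (adjusted p = 0.000889) and from 12.3 ± 3.43 to 25.9 ± 2.73 CPM (adjusted p = 0.00297). Maff, the third of them, fell from 18.1 ± 3.39 to 11.1 ± 2.61 CPM (log2 fold change -0.71, adjusted p = 0.0254), and lost the call without WT mouse 2 (-0.74) or 3 (-0.58) or Letmd1 KO mouse 1 (-0.59) or 3 (-0.66). Keap1 fell from 113 ± 9.73 to 87.1 ± 5.39 CPM (-0.37, adjusted p = 0.0202), but was at 0.047 by library size alone, and lost the call after quantile normalization (-0.20) and without WT mouse 2 (-0.34) or Letmd1 KO mouse 2 (-0.32). Cul3, the ligase scaffold that works with KEAP1, fell from 90.4 ± 5.11 to 59.0 ± 2.95 CPM (-0.62, adjusted p = 0.00123), and lost the call by library size alone (-0.19). Nfe2l1, a relative of NRF2, rose from 282 ± 9.78 to 362 ± 48.5 CPM (0.36, adjusted p = 0.0365), and lost the call without WT mouse 1 (0.37), 2 (0.36) or 3 (0.32) or Letmd1 KO mouse 1 (0.28) or 3 (0.33) and with the replicate number as a block (0.35, adjusted p = 0.0558). Rbx1, the ring subunit of the ligase, stood at -0.28 on the log2 scale (adjusted p = 0.0647), which passed without Letmd1 KO mouse 2 (-0.34, adjusted p = 0.0437) and was 0.14 by library size alone. Bach1, which represses NRF2 targets, was at 18.8 and 20.4 CPM (adjusted p = 0.702). By library size alone 5 genes of this list were called, 0 of them lower, and without WT mouse 2 also 5 were called, 1 of them lower.

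Of 28 tested further NRF2 target genes, 10 were higher and 7 lower, with a median log2 fold change of 0.27. The share of all tested genes was 23.7% higher and 22.3% lower, so that the lower count is near the background. Cbr3, a carbonyl reductase, rose from 6.47 ± 2.41 to 153 ± 67.1 CPM, a log2 fold change of 4.58 ± 0.36, or 23.9-fold (adjusted p = 1.86e-05). Abcc4, an efflux pump, rose from 14.6 ± 2.57 to 110 ± 38.0 CPM, or 7.56-fold (adjusted p = 4.06e-05). Tkt, transketolase, fell from 2065 ± 238 to 355 ± 193 CPM (5.82-fold lower, adjusted p = 0.000275), and Taldo1, transaldolase, from 1855 ± 189 to 401 ± 72.5 CPM (4.62-fold lower, adjusted p = 1.44e-05). With library size alone 16 genes of this list were higher and 4 lower.

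Among glutathione S-transferases, which join glutathione to electrophiles, 5 of 21 tested were higher and 9 lower, with a median log2 fold change of -0.35, where library size alone left 2 lower and quantile normalization 5. Gsta4 fell from 82.1 ± 3.30 to 30.9 ± 10.4 CPM (log2 fold change -1.40, adjusted p = 0.000668), and Gsto2 from 11.5 ± 1.43 to 4.82 ± 1.04 CPM (-1.25, adjusted p = 0.00249). Hpgds, a prostaglandin synthase of this family that macrophages and mast cells carry, rose from 3.58 ± 1.76 to 19.0 ± 10.5 CPM (2.41, adjusted p = 0.00199). Gsta3 had 2.59, 1.17 and 1.43 CPM in WT and 4.29, 23.95 and 4.65 CPM in Letmd1 KO, a log2 fold change of 2.61 (adjusted p = 0.0148), with 1 Letmd1 KO mouse far above the others, and the call was lost without WT mouse 2 (2.36), while the change was 1.36 without Letmd1 KO mouse 2. Without WT mouse 2 the list had 9 calls, 2 of them higher, and without Letmd1 KO mouse 3 it had 9, 5 of them lower.

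**Figure D3:**
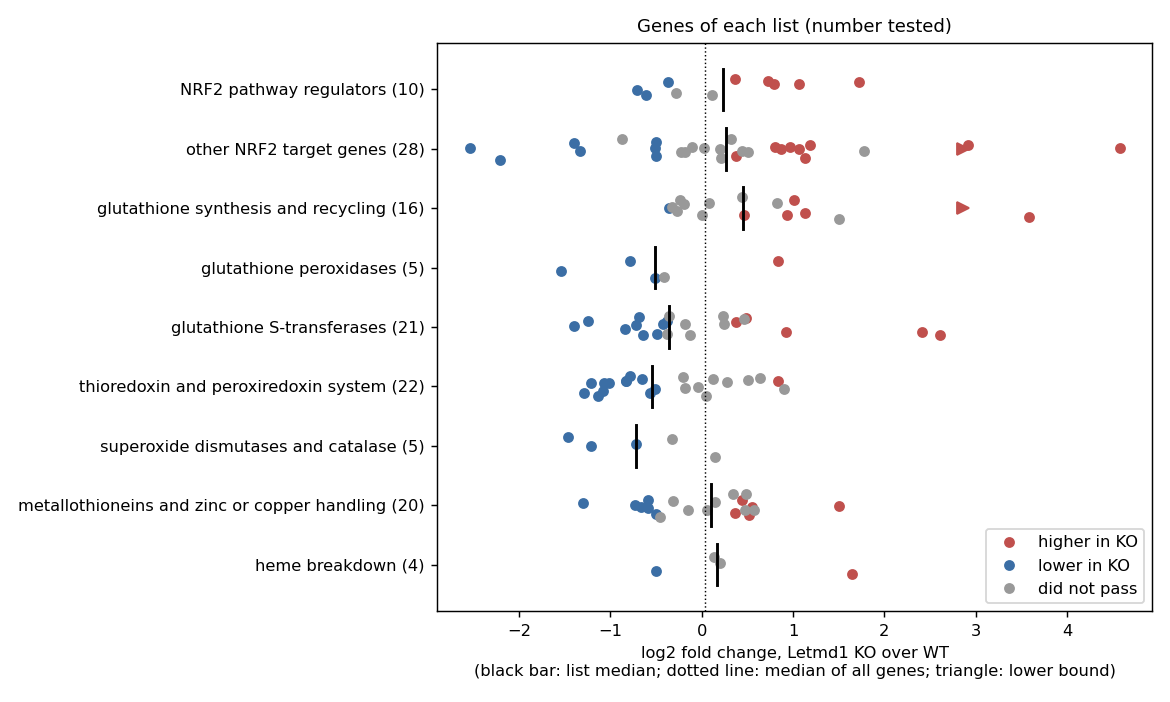
Log2 fold change of each tested gene of the 9 lists, Letmd1 KO over WT, with a black bar at the median of each list and a dotted line at that of all genes (0.03). Red points are higher, blue points lower and grey points did not pass. Triangles, labelled as a lower bound, mark Slc7a11 at its Letmd1 KO mean over the mean WT floor, without the spread between mice. The thioredoxin and peroxiredoxin list lies mostly to the left (12 lower, 1 higher) and the glutathione synthesis list to the right (6 higher, 1 lower).

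The scaling of the libraries changed the sign of some genes of small fold change. After quantile normalization, calls of genes of larger fold change were also lost, such as Nqo1 (1.21, adjusted p = 0.0999). That alternative changed the test to limma on log2 CPM as well, so scaling and test cannot be told apart in it. Nqo1, Hmox1, Srxn1, Gclc, Txnrd1 and Mt2 lay above 0, and Sod2 below 0, under TMM, RLE, library size alone and quantile normalization. Gclm, Gpx3 and Mt1 changed sign under at least 1 of them. By library size alone the calls of Gpx1 (-0.37), Gpx4 (-0.10), Cat (-0.30), Blvra (-0.09), Slc30a9 (-0.31), Slc39a8 (-0.88), Maff (-0.29), Cul3 (-0.19) and Mtf1 (-0.17) were lost, while Hmox2 (0.56), Blvrb (0.62) and Sod3 (0.56) passed. After quantile normalization the calls of Gpx1 (-0.42), Gpx4 (-0.17), Gpx7 (0.57), Gsta3 (1.68) and Lap3 (-0.15) were lost, and Blvrb (0.35) and Sod1 (0.51, the reverse of its TMM direction) passed as higher.

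**Figure D4:**
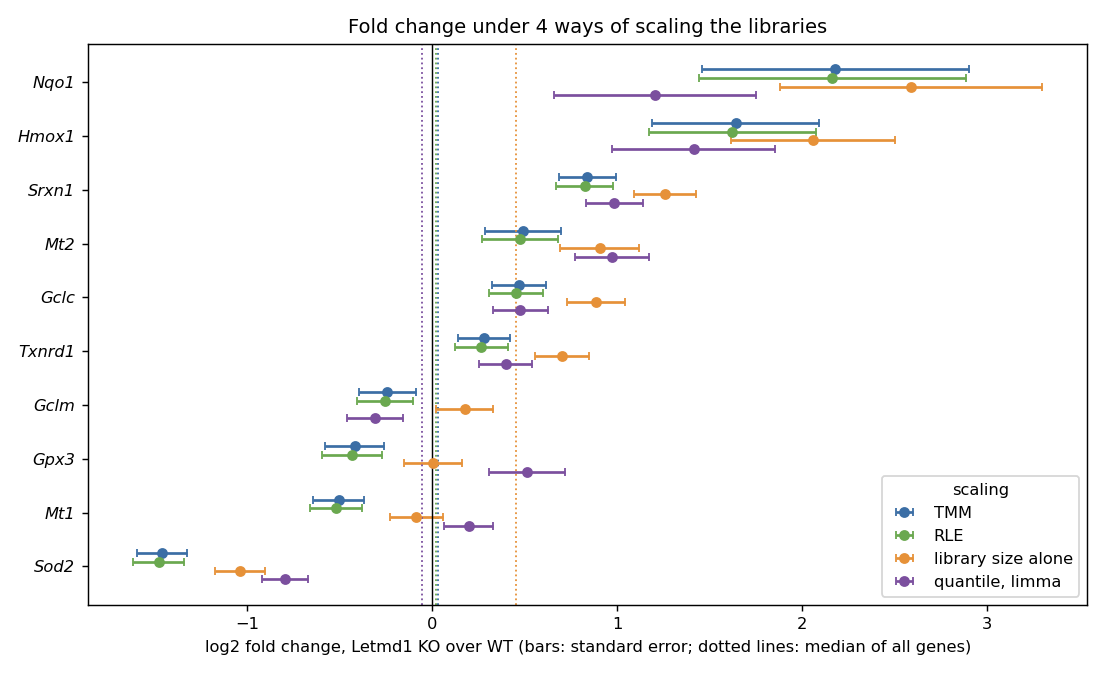
Log2 fold change of the 10 genes, Letmd1 KO over WT, with the standard error, under TMM, RLE, library size alone and quantile normalization with limma, and a dotted line at the median of all genes under each. Srxn1 stays between 0.82 and 1.26 and Sod2 between -1.48 and -0.79, while Gpx3 runs from -0.43 to 0.51.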

How the data were processed

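BAT of 3 WT and 3 Letmd1 KO mice was measured by bulk QuantSeq 3′ RNA-seq. The authors deposited raw read counts per gene for each mouse, in whole numbers without normalization. The submitters' processing notes name Bowtie2, Bedtools and mm10. The methods say that unique and multiple alignments were counted, so near-identical copies can share reads, and the gene annotation and use of strand are not given in the sources used here. Totals were between 6669577 and 14574273 counts per mouse. Of 23282 rows, 5588 had no counts, and 35 symbols stood on several rows. No mouse repeated another of its genotype: chi-square over its degrees of freedom was 12.1 to 36.3 for these pairs.

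The 10 genes and all lists were chosen with earlier results of these data known. Counts were tested in R 4.3.3 with the quasi-likelihood test of edgeR 4.0.16 on TMM-scaled libraries, after its default filter (minimum count 10, minimum total 15), which kept 12995 genes, with Benjamini-Hochberg adjustment over all of them and a threshold of 0.05. Log2 ratios within a mouse used a pseudocount of 1 and were tested with a two-sided exact permutation of the mice. On simulated counts, 60 of 97 genes changed by a log2 fold of 1 and 86 of 98 changed by 2 were recovered. Of 12674 genes run, 12479 were unchanged, and 15 of these were called. In the mice 46.0% of tested genes were called, and recovery with that large a share of changed genes was not tested. Named genes are the 10, the NRF2 regulators, all tested genes of lists of at most 5, the extremes (up to 2 in each direction, at a mean of 20 counts or more) of the other lists past the threshold, the partners in the ratios, and the 2 nearest profiles of each of the 10. Genes named after their values were seen are marked. Positions came from GENCODE vM21 and promoters from RefSeq, which matched 8 of the 10 genes. Alternatives were library size alone, RLE, quantile normalization with limma 3.58.1 (the normalization the methods name), no filter, one that asks for a mean of 50 counts, DESeq2 1.42.0, the replicate number as a block, and leaving out each mouse in turn.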

Additional observations from a re-analysis of the deposited data

How the results depend on the processing

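No alternative was added after the data were seen. Srxn1 and Sod2 kept their call and direction under all 13 alternatives run. By library size alone 1368 genes were lower and 5899 higher (81.2% of calls higher, against 51.6% with TMM), and the median of all genes moved by 0.42. Under that scaling 1 of the 10 genes was lower, Gclm was at 0.18, Gpx3 at 0.0047, Mt1 at -0.084, Mt2 at 0.91 (past the threshold) and Txnrd1 at 0.70 (past the threshold), and Keap1 was at 0.047, Rbx1 at 0.14, Lap3 at 0.067 and Sod1 at 0.10. After quantile normalization 1 of the 10 was lower, Nqo1 was at 1.21 (no longer past the threshold), Gpx3 at 0.51, Mt1 at 0.20, Mt2 at 0.97 and Txnrd1 at 0.40 (both past it), and Sod1 was at 0.51, past it in the reverse direction (adjusted p = 0.00981). Without a filter Gpx3 (-0.42) passed, and with DESeq2 Gpx3 (-0.43) and Mt2 (0.48) passed. By library size alone, the lists of S-transferases and peroxidases had 8 and 2 calls, the dismutases and heme lists 1 and 3 higher, and after quantile normalization the S-transferases had 9 calls, the peroxidases 1, lower, and the dismutases and heme lists 1 and 2 higher. The block left 2 genes of the thioredoxin list higher. The quantile alternative also changed the test to limma on log2 CPM, and the cause of these changes was not tested. Nqo1 could not be tested with the filter at a mean of 50 counts.

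Leaving out each mouse in turn, the number called of the 10 genes ran from 3 to 5 (lower 1 to 3, higher 2 to 3). Nqo1 ran from 1.66 to 3.10, Hmox1 from 1.31 to 2.39, Gclc from 0.39 to 0.56, Gpx3 from -0.56 to -0.35, Mt1 from -0.62 to -0.43, Bach1 from -0.058 to 0.30, Sod3 from -0.047 to 0.29 and Hmox2 from -0.0065 to 0.20. Of the within-mouse ratios, all 35 alternatives stayed within 1 SD, taken as the larger SD of the genotypes. Leaving out 1 of 3 mice cannot move a group mean that far, so nothing is read from this count.

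The correlations of same-numbered mice were 0.07, -0.11 and -0.09, and those of mice of unlike number lay between -0.09 and 0.19. No pairing by number was seen in these values, but with 3 mice per genotype they cannot exclude one. With the replicate number as a block, Gclc (0.47, adjusted p = 0.0515), Nfe2l1 (0.35, adjusted p = 0.0558) and Slc39a8 (-1.37, adjusted p = 0.0685) no longer passed, and 2713 genes were lower and 2886 higher. Depth limits Nqo1, with between 0 and 8 counts in WT, and Slc7a11, with 0 in each WT mouse, beside a floor of 3 counts.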

Other observations

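For each of the 10 genes, the tested genes whose level over the 6 mice was most alike were found among 11922 genes with a mean of at least 20 counts, by the root mean square difference of the centred log2 CPM. The genes nearest to Sod2 were Atp5k, a subunit of ATP synthase (0.037), and Uqcrfs1, the Rieske protein of complex III (0.055). Atp5k was at 746 ± 43.9 CPM in WT and 268 ± 35.8 CPM in Letmd1 KO (SD, n = 3 per genotype). The genes nearest to Mt1 were Klf3 (0.036) and Dgkd (0.038), and those nearest to Mt2 were Ddx20 (0.071) and 2310057M21Rik (0.091). The nearest to Gclc were Arhgap23 (0.053) and Timeless (0.054), to Gclm Ostf1 (0.043) and Phf12 (0.053), and to Gpx3 Haus1 (0.061) and Rnf138 (0.068). Txnrd1 was nearest to Dtwd2 (0.040) and Srbd1 (0.041), and Srxn1 to Pacsin2 (0.077) and Nfxl1 (0.083). The distances were wider for the 2 genes of lowest count, with Slc8b1 (0.184) and the chemokine receptor gene Cxcr4 (0.223) beside Hmox1, and Gdpd1 (0.143) and AI467606 (0.196) beside Nqo1. These distances rest on 6 mice and are given as a description.

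Of the metallothionein genes of other tissues, Mt3 had 0, 1 and 0 counts in WT and 0, 9 and 5 counts in Letmd1 KO and was not tested.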
